A study of Mus musculus with 8 samples.

Results

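The 9 genes described here, *Csf1r*, *Cx3cr1*, *Ccr2*, *Adgre1*, *Itgam*, *Cd14*, *Cd68*, *Lyz2* and *Klf4*, are among those by which monocytes and macrophages are recognised. They were taken by name out of 21938 protein-coding genes, and every H3K9ac peak within 1 kb of any of their transcription start sites (TSSs) or in their gene bodies was used. H3K9ac, the acetylation of lysine 9 of histone H3, marks active promoters and enhancers. It was measured by ChIP-seq in frozen whole bone marrow (BM) cells of C57BL/6 mice, and each library was deposited as a list of peaks. All mice carried the *NUP98-HOXD13* transgene, a fusion gene that gives a disease like myelodysplastic syndrome (MDS), which can progress to acute myeloid leukaemia (AML). The mice differed in their form of GFI1, a transcriptional repressor of blood cells.

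*GFI1-36S* is the common form of the gene, *GFI1-36N* is a variant with another amino acid at that position, and *GFI1-KD* mice express less GFI1. For each form there was 1 library from mice labelled as not given curcumin, which received the solvent DMSO as vehicle, and 1 from mice given 20 mg/kg curcumin weekly by intraperitoneal injection, 6 libraries in all. Curcumin inhibits histone acetyltransferases. The study asked whether it changes promoter acetylation in mice with each GFI1 form. With 1 library per group there is no replicate check, no test across mice was made and no p-value is given. The input (*GFI1-36S*) and rabbit IgG (*GFI1-36N*) samples of the series were not analysed here.

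Monocytes arise in BM from myeloid progenitors, enter the blood and can become macrophages in tissues. CSF1R, the receptor for the growth factor CSF1, keeps cells of this lineage alive and growing. CCR2 lets inflammatory monocytes leave the BM, CX3CR1 is the receptor for fractalkine on patrolling monocytes and many tissue macrophages, and KLF4 is a transcription factor needed for monocyte development. None of these genes is read by monocytes alone, since neutrophils also use *Itgam* and *Lyz2*, and *Klf4* is used outside the blood.

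Before the genes are described, the libraries have to be. The lists held 20354 to 49213 peaks, and a promoter peak was found at 45.3% to 55.3% of all protein-coding genes. The shortest list is that labelled *GFI1-36S* curcumin. It was the only list with peaks on chromosome Y, where it had 3, it had a promoter peak at 13 of 14 T-cell genes and at 1 of 18 neutrophil genes, and in the *GFI1-36S* pair the treatment in the name of each list is the reverse of its label. The labels were followed, and the main results of this pair are also given with the treatments exchanged. Judged by list names alone, the *GFI1-36N* mice differed in zygosity too, with 1 allele of the variant in vehicle and both in curcumin. The lists carry no read totals. The number of ChIP fragments at a summit was recovered from the fold enrichment and p-value of the peak in 98.0% to 99.8% of cases, depending on the library, and the median summit held 24 to 36 fragments.

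The stretch before the TSS is shown for 4 of the genes, because it is the part of the promoter that a peak can cover on the upstream side and because the stretches differ in base composition. Each is 150 bases long, is taken from RefSeq on GRCm38.p6 (mm10), ends at or within 18 bases of the most upstream annotated start, and is printed on the strand of the gene with each CG in capitals. *Itgam* is on chr7:128062490-128062639 (plus strand), *Cd68* on chr11:69666171-69666320 (minus), *Lyz2* on chr10:117282322-117282471 (minus) and *Klf4* on chr4:55532476-55532625 (minus), all outside annotated exons.
Itgam: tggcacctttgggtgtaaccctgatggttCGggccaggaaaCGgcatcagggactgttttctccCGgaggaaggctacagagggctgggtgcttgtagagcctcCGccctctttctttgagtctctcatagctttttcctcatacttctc
Cd68: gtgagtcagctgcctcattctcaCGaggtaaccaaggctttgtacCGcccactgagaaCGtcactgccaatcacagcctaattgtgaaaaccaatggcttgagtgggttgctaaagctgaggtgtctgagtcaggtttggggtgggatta
Lyz2: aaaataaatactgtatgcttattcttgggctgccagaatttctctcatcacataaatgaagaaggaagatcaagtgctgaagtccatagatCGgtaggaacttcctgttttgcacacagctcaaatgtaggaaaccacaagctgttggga
Klf4: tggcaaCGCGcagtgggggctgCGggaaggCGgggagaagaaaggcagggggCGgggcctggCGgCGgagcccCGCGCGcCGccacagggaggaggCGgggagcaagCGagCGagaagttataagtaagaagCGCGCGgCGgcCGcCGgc

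The *Klf4* stretch holds 20 CG, against 4 in *Itgam*, 3 in *Cd68* and 1 in *Lyz2*. Over the 250 bases before the RefSeq start, the ratio of observed to expected CG was 0.941 for *Klf4*, higher than in 91.0% of 32851 promoters of that length. It was 0.390 for *Itgam*, 0.270 for *Cd68*, 0.233 for *Cx3cr1*, 0.120 for *Ccr2* and 0.0953 for *Lyz2*, with a median of 0.374 over all promoters. *Klf4* thus has a CG-rich promoter, and the other 5 genes in the table lie near or below the median. The letters GAGGAA, the core that PU.1 binds, occur on either strand in the 250 bases of *Itgam*, where there are 2, and of *Cd68*, where there is 1, and 23.3% of all promoters hold them. TTGCNNAA, a C/EBP motif, occurs in *Cd68* and in 9.56% of all promoters. In the libraries other than *GFI1-36S* curcumin, peaks covered the whole printed *Itgam* stretch. The printed *Cd68* stretch was covered in *GFI1-KD* vehicle alone, over 15.3% of its bases.

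All 9 genes had a promoter peak in *GFI1-36S* vehicle, in both *GFI1-36N* libraries and in both *GFI1-KD* libraries, and none had one in the library labelled *GFI1-36S* curcumin. Of all protein-coding genes, 53.1%, 53%, 55.3%, 54.9% and 51.8% had a promoter peak in these 5 libraries and 45.3% in *GFI1-36S* curcumin. Among 10861 genes that had a promoter peak in each of the other 5 libraries, 12.3% had none in *GFI1-36S* curcumin, and of the 10138 among them that never ranked below the lowest of the 9 genes, 8.39% had none. As whole BM was used, fewer cells of the monocyte lineage and less acetylation per cell cannot be told apart in any of these values.

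**Figure D1:**
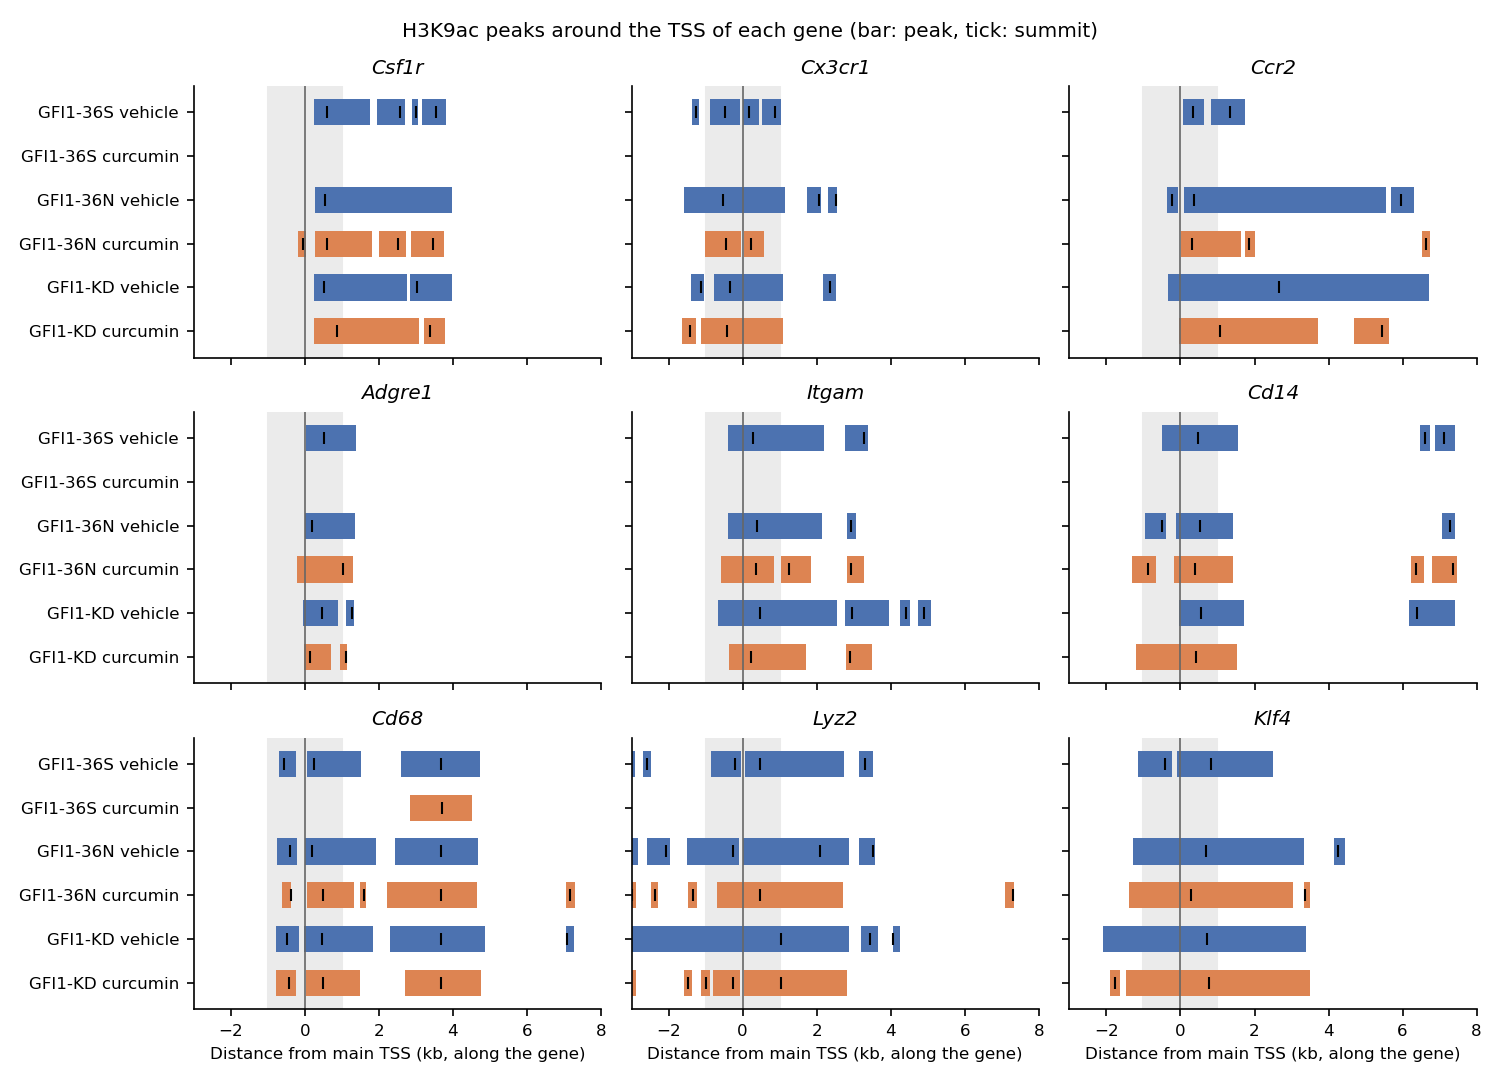
H3K9ac peaks around the main TSS of each gene, by library. The horizontal axis is the distance from the TSS in kb along the gene, from 3 kb upstream to 8 kb downstream; bars are peaks (blue vehicle, orange curcumin), ticks are summits, and the grey band is the window of 1 kb on each side. The row of *GFI1-36S* curcumin is empty for 8 genes, and its peak beyond the *Cd68* window belongs to the start of *Mpdu1*.

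For most of the genes the surroundings held no peak either. In *GFI1-36S* curcumin, the nearest peak to the TSS of *Klf4* lay 181 kb away, and it lay 70.7 kb away for *Csf1r*, 68.3 kb for *Adgre1*, 57.7 kb for *Lyz2* and 42.1 kb for *Cx3cr1*. For *Cd14* it lay 7.90 kb upstream, for *Itgam* 4.08 kb upstream, and for *Cd68* 2.85 kb downstream, at the start of the neighbouring gene *Mpdu1*. The lowest summit listed in this library stood 3.04-fold above its genome background. The summits of the 9 genes in the other libraries stood 5.79- to 37.2-fold above theirs. Among genes with a recovered summit in both *GFI1-36S* libraries, the height in *GFI1-36S* curcumin was at the median 0.583 times that in *GFI1-36S* vehicle. With intervals apart, 69.2% of these genes were lower and 0.921% higher in *GFI1-36S* curcumin.

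The strength of a peak is given in 3 ways. The fold enrichment is the authors' ratio of summit fragments to those of the local background. The rank places the strongest promoter peak of a gene, by fold enrichment, on a scale up to 100 among all genes with a promoter peak in that library, with 0 for no peak. The summit height is the recovered number of fragments relative to the genome background of the library, with a 95% Poisson interval that covers counting error only. Values for the 5 libraries with peaks follow in the order *GFI1-36S* vehicle, *GFI1-36N* vehicle, *GFI1-36N* curcumin, *GFI1-KD* vehicle and *GFI1-KD* curcumin, and all ranks in *GFI1-36S* curcumin were 0.

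**Figure D2:**
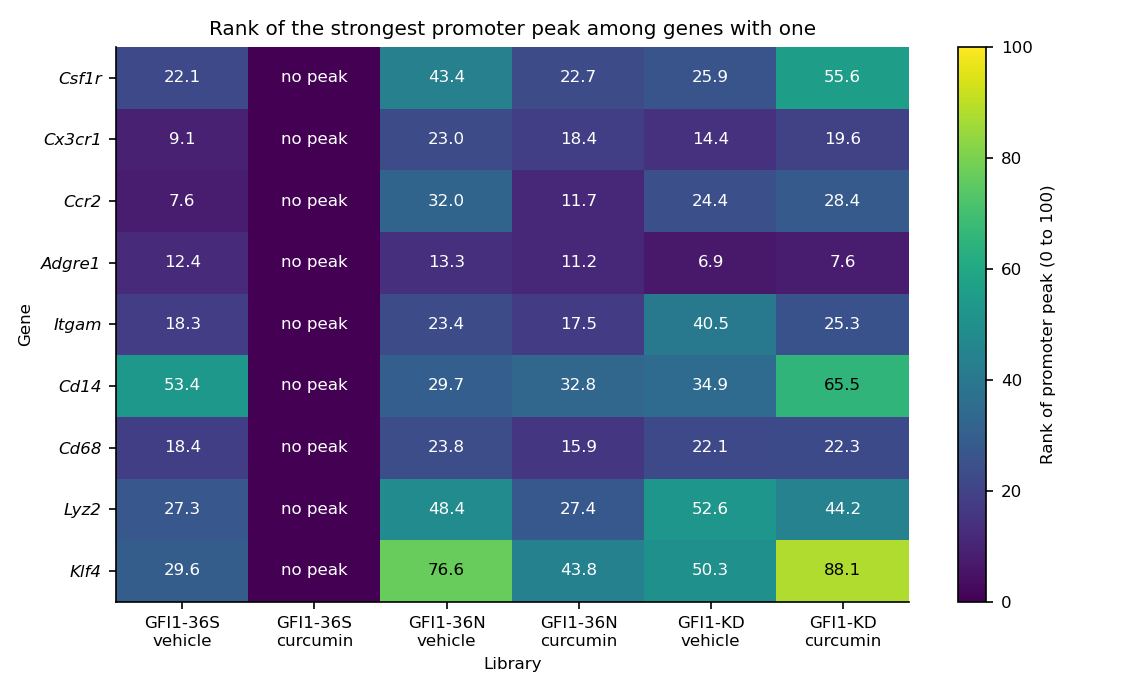
Rank of the strongest promoter peak of each gene in each library, on a scale from 0 to 100 shown by colour and number. *Klf4* in *GFI1-KD* curcumin is the brightest field at 88.1, the column of *GFI1-36S* curcumin holds no peak, and *Adgre1* does not pass 13.3.

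Among the receptors for growth factors and chemokines, *Csf1r* lies on chromosome 18 of mm10 from 61100598 to 61132149 on the plus strand. Its rank was 22.1, 43.4, 22.7, 25.9 and 55.6 in the 5 libraries. The fold enrichment was 11.1, 15.8, 11.1, 12.6 and 20.5. The gene was therefore highest in *GFI1-KD* curcumin and next in *GFI1-36N* vehicle, while the other 3 libraries lay close together. In height, *GFI1-KD* curcumin stood at 24.9 (20.7 to 29.7), above the intervals of *GFI1-36S* vehicle at 13.4 (10.4 to 17.1), *GFI1-36N* curcumin at 13.2 (10.1 to 16.9) and *GFI1-KD* vehicle at 14.8 (11.95 to 18.2). The interval of *GFI1-36N* vehicle, 18.4 (15.1 to 22.2), overlapped all 4 others.

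*Cx3cr1* lies on the minus strand of chromosome 9, and its well-supported transcript runs from 120048683 to 120068296. Its rank was 9.12, 23.0, 18.4, 14.4 and 19.6, and its fold enrichment 5.39, 10.1, 8.83, 7.40 and 10.1. These are weak peaks, and the lowest was again that of *GFI1-36S* vehicle, with 31 fragments at the summit. The summit lay upstream of the TSS in all 5 libraries, between −526 and −351 bp. Peaks here also covered the start of *Gm33858*, an antisense RNA gene, and ChIP-seq gives no strand, so the acetylation of these genes cannot be told apart.

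*Ccr2* lies on chromosome 9 from 124101950 to 124113557 on the plus strand. Its rank was 7.59, 32.0, 11.7, 24.4 and 28.4, and its fold enrichment 4.89, 12.8, 5.88, 11.9 and 13.1. *GFI1-36S* vehicle and *GFI1-36N* curcumin were low and the other 3 libraries high, and the intervals of the heights did not overlap between the former, at 5.79 (3.85 to 8.37) and 6.91 (4.75 to 9.70), and the latter, at 14.8 to 15.8. The width split the libraries in the same way. The peak spanned 573 and 1615 bp in the low libraries, against 5452 bp in *GFI1-36N* vehicle, 7067 bp in *GFI1-KD* vehicle and 3758 bp in *GFI1-KD* curcumin. In *GFI1-KD* vehicle it covered the first part of the gene without a break, and its summit lay at +2663 bp, beyond the promoter window.

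Among the surface receptors of adhesion and of bacterial products, *Adgre1* encodes F4/80, the antigen by which mouse macrophages are commonly stained. It lies on chromosome 17 from 57358691 to 57483527 on the plus strand. Its rank was 12.4, 13.3, 11.2, 6.91 and 7.65, and its fold enrichment 6.72, 6.47, 5.71, 4.59 and 5.31. It was the weakest of the 9 genes by median rank and the one that varied least among the 5 libraries, and the intervals of its heights all overlapped.

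*Itgam* encodes CD11b, the alpha chain of an integrin of monocytes and neutrophils, and lies on chromosome 7 from 128062640 to 128118491 on the plus strand. Its rank was 18.3, 23.4, 17.5, 40.5 and 25.3, and its fold enrichment 9.40, 10.2, 8.48, 18.3 and 12.1. *GFI1-KD* vehicle stood apart at a height of 21.7 (18.2 to 25.7), above the intervals of *GFI1-36S* vehicle and of both *GFI1-36N* libraries. The interval of *GFI1-KD* curcumin, 14.6 (11.4 to 18.3), just reached it. The peak also covers the start of *Gm49368*, an overlapping protein-coding gene.

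*Cd14* encodes the co-receptor for bacterial lipopolysaccharide and lies on chromosome 18 from 36725067 to 36726798 on the minus strand. Its rank was 53.4, 29.7, 32.8, 34.9 and 65.5, and its fold enrichment 20.8, 12.1, 15.6, 16.3 and 23.2. By rank, *Cd14* alone of the 9 genes was higher in *GFI1-36S* vehicle than in the vehicle libraries of both other genotypes. Its height in *GFI1-36S* vehicle was 25.4 (21.1 to 30.3), which did not overlap that of *GFI1-36N* vehicle at 14.03 (11.2 to 17.4) but did overlap that of *GFI1-KD* vehicle at 19.2 (15.9 to 23.0).

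The other 2 products serve the lysosome and the killing of bacteria. *Cd68*, which encodes a glycoprotein of lysosomes, lies on chromosome 11 from 69664213 to 69666153 on the minus strand. Its rank was 18.4, 23.8, 15.9, 22.1 and 22.3, and its fold enrichment 9.42, 10.3, 7.79, 11.0 and 11.1. Like *Adgre1* it varied little, and the intervals of its heights all overlapped. *Lyz2*, which encodes lysozyme of phagocytes, lies on chromosome 10 from 117277331 to 117282321 on the minus strand. Its rank was 27.3, 48.4, 27.4, 52.6 and 44.2, and its fold enrichment 13.1, 17.0, 13.3, 22.3 and 17.7. The pattern resembles that of *Ccr2*, with *GFI1-36S* vehicle and *GFI1-36N* curcumin below the others, but of these only the interval of *GFI1-KD* vehicle, 26.4 (22.5 to 30.8), was clear of both, at 15.9 (12.6 to 19.9) and 15.9 (12.5 to 19.9). The *GFI1-KD* vehicle peak spanned 6128 bp and began at −3241 bp, upstream of the TSS, toward the related gene *Lyz1*. How reads shared by such related genes were placed is not given in the sources used here.

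*Klf4*, the transcription factor, lies on chromosome 4 from 55527143 to 55532466 on the minus strand. Its rank was 29.6, 76.6, 43.8, 50.3 and 88.1, and its fold enrichment 13.96, 23.7, 19.2, 21.6 and 30.6. It had the highest median rank of the 9 genes and the widest spread, 58.4 rank points between the lowest and the highest of the 5 libraries. The height in *GFI1-KD* curcumin was 37.2 (32.0 to 43.0), above the intervals of *GFI1-36S* vehicle, *GFI1-36N* curcumin and *GFI1-KD* vehicle, and it just overlapped that of *GFI1-36N* vehicle at 27.7 (23.6 to 32.3). In *GFI1-36S* vehicle the promoter held 2 peaks, 1 of 923 bp with its summit at −423 bp and 1 from −97 to +2490 bp, across the TSS, with a fold enrichment of 12.4. In the other 4 libraries a single peak of 4430 to 5485 bp ran across the TSS.

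**Figure D3:**
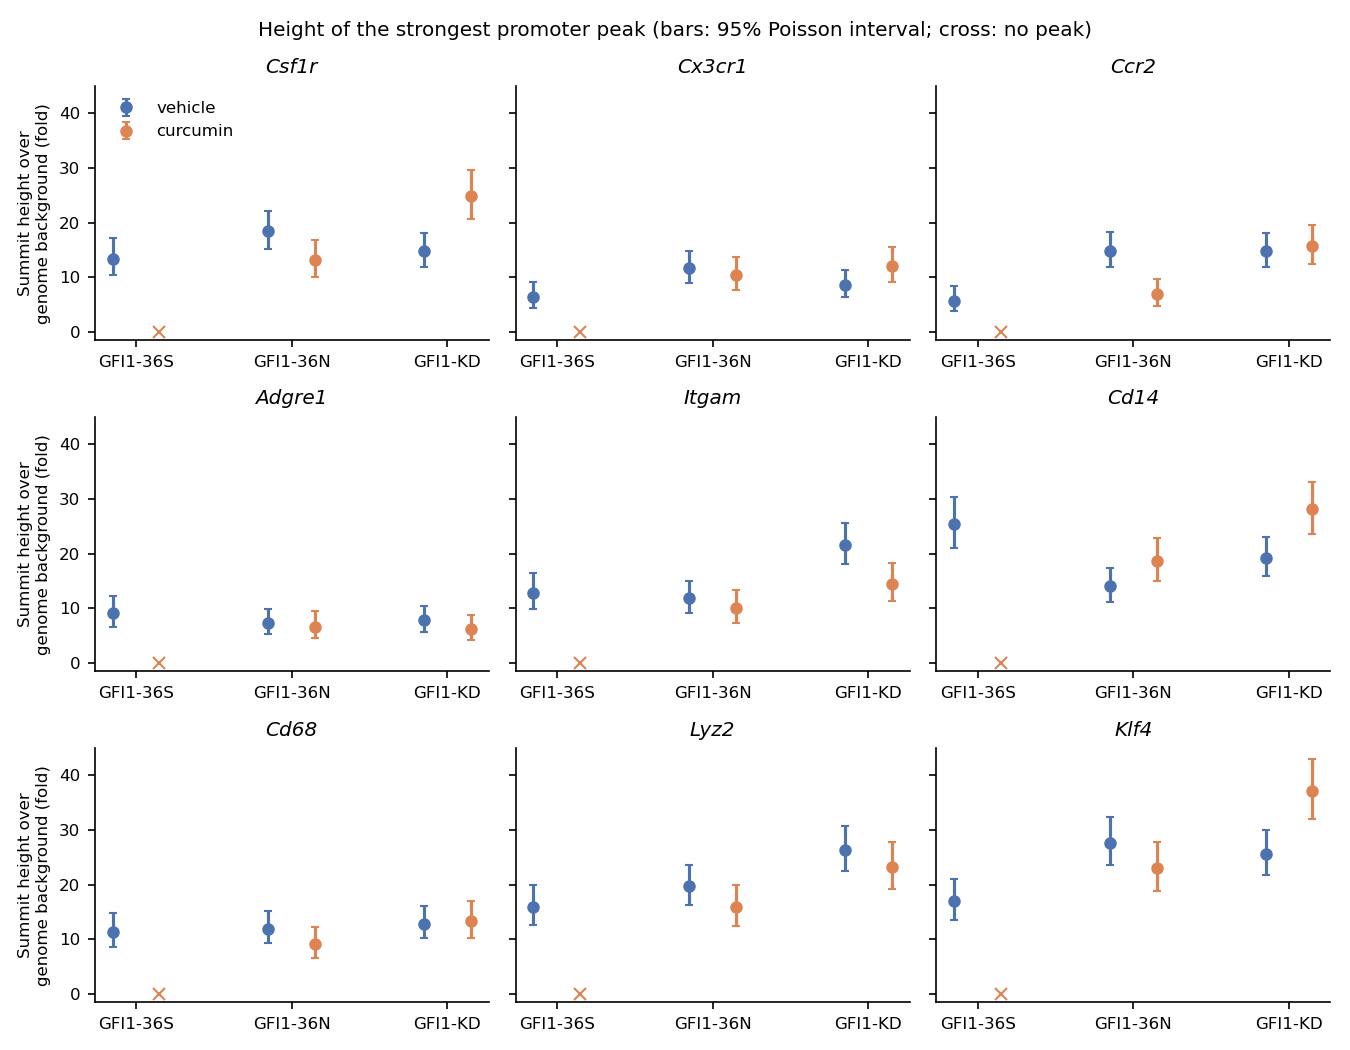
Summit height of the strongest promoter peak over the genome background of its library, in fold, for each gene, by genotype, with vehicle in blue and curcumin in orange. Points are single libraries, bars are 95% Poisson intervals that cover counting error only, and crosses mark libraries with no peak. In *GFI1-KD*, the intervals of vehicle and curcumin do not overlap for *Csf1r*, *Cd14* and *Klf4*.

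The *Csf1r* gene holds a well-known enhancer in the intron that follows the exon with the start codon, through which transcription in macrophages is controlled. In the main transcript this is intron 2, on chromosome 18 from 61105999 to 61109615, which is 3617 bp long and begins 427 bp after the TSS. Peaks covered 81.0% of it in *GFI1-36S* vehicle, 97.8% in *GFI1-36N* vehicle, 83.1% in *GFI1-36N* curcumin, 96.3% in *GFI1-KD* vehicle and 88.8% in *GFI1-KD* curcumin, and none of it in *GFI1-36S* curcumin. The strongest promoter peak of *Csf1r* began 243 to 269 bp after the main TSS and had its summit between +525 and +884 bp, inside this intron. Annotated TSSs at +280 and +307 bp lie within the peak, so acetylation of the promoter and of the intron cannot be told apart there. A weak peak over the main TSS itself, from −170 to +42 bp with a fold enrichment of 3.29, was listed in *GFI1-36N* curcumin. In *GFI1-36N* vehicle a single peak of 3701 bp spanned nearly the whole intron. In *GFI1-36N* curcumin the same stretch was split into 3 peaks with fold enrichments of 11.1, 8.48 and 4.50 at +591, +2520 and +3464 bp. *GFI1-36S* vehicle had 4 peaks there and each *GFI1-KD* library 2, and in all of these the peak nearest to the TSS was the strongest. Of 6 annotated TSSs, the one at −4974 bp had no peak within 1 kb in any library, and the other 5 had one in each library but *GFI1-36S* curcumin.

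Within the gene bodies, all 9 genes had a peak in each of the 5 libraries, largely the promoter peak itself. Of all protein-coding genes, 56.4%, 56.3%, 59.1%, 58% and 54.6% had one in these libraries. Away from the promoter windows, 4 genes had a further peak in *GFI1-36S* vehicle, where 26% of all genes had one, 6 in *GFI1-36N* vehicle (25.5%), 6 in *GFI1-36N* curcumin (29.9%), 5 in *GFI1-KD* vehicle (25.6%) and 3 in *GFI1-KD* curcumin (19.1%). These shares are over genes of all lengths. At *Itgam* the strongest of these in *GFI1-36S* vehicle and both *GFI1-KD* libraries lay in the same place, at +26927, +26885 and +26900 bp. At *Cx3cr1* in *GFI1-36N* vehicle there were 7, which with the promoter peak covered 23.2% of the span of its well-supported transcript, against 6.07% in *GFI1-36N* curcumin. In *GFI1-36S* curcumin 2 of the 9 genes, *Itgam* and *Cx3cr1*, had a body peak, against 46.5% of all genes, and both lay away from the promoter windows, as for 10.9% of all genes. The *Itgam* peak lay at +17806 bp, was 461 bp wide and had a fold enrichment of 4.07. At *Cx3cr1* there were 5 peaks in the annotated span of 168264 bp, which holds the starts of 5 other protein-coding genes, and none in the span of its well-supported transcript.

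In *GFI1-36N* mice, the rank was lower with curcumin than with vehicle for 8 of the 9 genes and higher for *Cd14*. It was lower by 10 points or more for 4 of the 9, where 11% of 12350 genes with a promoter peak in the pair were, and higher by that much for none, where 19.5% were. The 4 genes were *Klf4* with a change of −32.8, *Lyz2* with −21.0, *Csf1r* with −20.7 and *Ccr2* with −20.4. The median change of the 9 genes was −7.89, against 1.98 over all genes. In height, the median ratio of curcumin to vehicle was 0.830 for the 9 genes and 1.25 for all genes, of which 88.1% were higher with curcumin. Only *Ccr2*, at 0.464 times the vehicle height, had intervals that did not overlap, and 0.682% of all genes were lower and 20.1% higher in this way. No gene lost its peak, nor did any gain one, against 1.84% and 5.93% of all genes. The length covered within the supported gene span was also shorter with curcumin at *Ccr2* (2078 against 6075 bp), *Cx3cr1* (1191 against 4545 bp) and *Csf1r* (3755 against 4862 bp). With the peak summit required inside the window, the change of *Lyz2* was 6.41. Treatment and the difference in zygosity given by the list names cannot be told apart in this pair.

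In *GFI1-KD* mice the rank was higher with curcumin for 7 of the 9 genes. It was higher by 10 points or more for *Klf4* with a change of 37.8, *Cd14* with 30.7 and *Csf1r* with 29.8, where 9.38% of 12188 genes were. It was lower by that much for *Itgam* with −15.1, where 20.7% of genes were, and *Lyz2* changed by −8.38. With the summit required inside the window, the vehicle peaks of *Lyz2* and *Ccr2* were not counted, and the changes were 16.9 and 28.6. The strongest *Lyz2* peak with curcumin, with its summit at +1043 bp, was not counted either. The change of *Lyz2* then rests on a weaker curcumin peak at −264 bp, with a fold enrichment of 8.95. The other 4 genes, *Cx3cr1*, *Ccr2*, *Adgre1* and *Cd68*, changed by 5.27, 4.04, 0.733 and 0.274. The median change of the 9 genes was 4.04, against −2.37 over all genes. In height, *Csf1r* stood at 1.68 times, *Cd14* at 1.46 times and *Klf4* at 1.45 times its vehicle value with intervals that did not overlap, as for 1.3% of all genes. None of the 9 was lower in this way, against 9.76% of all genes, and 24.6% of all genes were higher with curcumin in any amount. The peaks of *Ccr2* and *Lyz2* were nevertheless narrower with curcumin, at 3758 against 7067 bp and 2793 against 6128 bp. Those of *Itgam*, *Adgre1*, *Cd68* and *Klf4* were narrower too, and those of *Csf1r*, *Cx3cr1* and *Cd14* wider. Over all genes, the median promoter peak was also narrower with curcumin, at 1490 against 1883 bp. No gene lost or gained its peak, against 6.79% and 1.25% of all genes. The median depended on the setting, at −3.89 with genes ranked by summit height and 16.9 with the summit required inside the window. *Klf4*, *Cd14* and *Csf1r* were higher with curcumin in each alternative in which they had a promoter peak. The rest of the 9 genes all ranked lower by summit height, *Adgre1* with a change of −10.9. With a window of 3 kb, *Cd68* changed by −15.6. That window takes in the stronger peak at the start of *Mpdu1*, with fold enrichments of 28.7 with vehicle and 20.9 with curcumin. The value therefore reflects that peak rather than the promoter peak of *Cd68*, at 11.0 and 11.1.

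**Figure D4:**
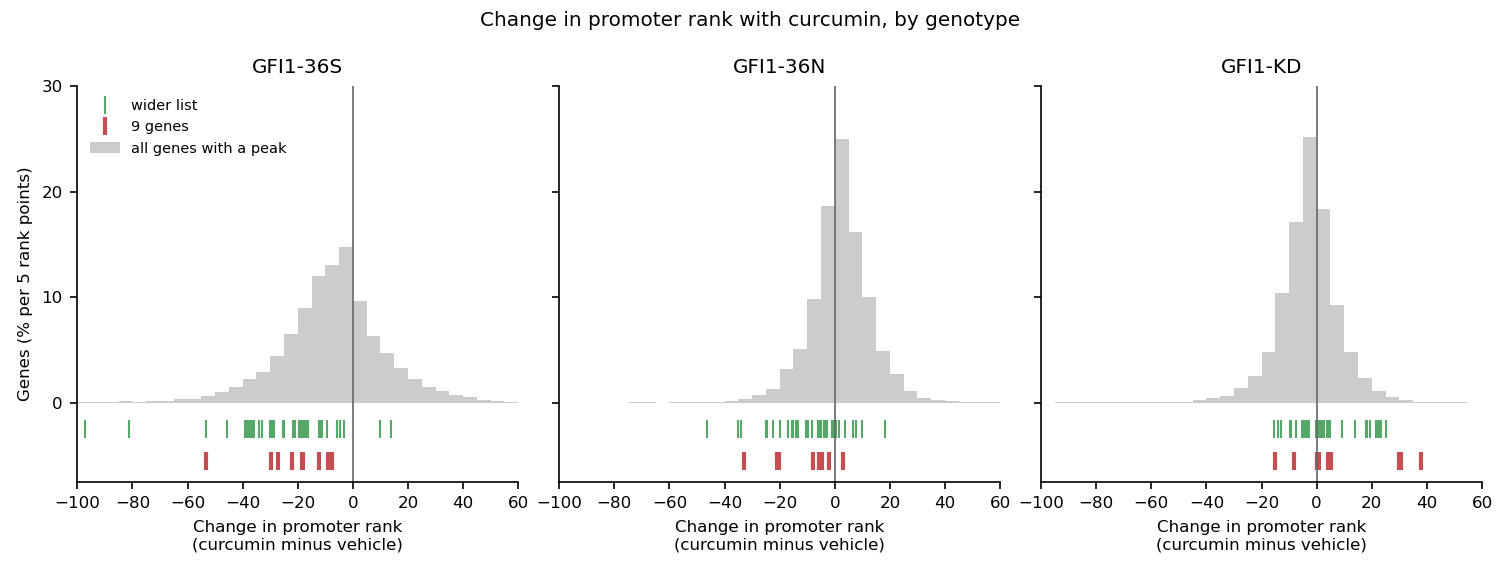
Change in promoter rank with curcumin (curcumin minus vehicle, in rank points) in each genotype. Grey bars give the percentage of all genes with a promoter peak in the pair per 5 rank points, and the ticks under them are the wider list of monocyte and macrophage genes (green) and the 9 genes (red). The ticks lie mostly left of zero in *GFI1-36N*, reach from −15.1 to 37.8 for the 9 genes in *GFI1-KD*, and in *GFI1-36S* the red ones all lie left of zero.

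In *GFI1-36S* mice, all 9 genes lost their peak from the vehicle to the curcumin label, as did 16.5% of 11894 genes, and 2.03% gained one. The rank was lower by 10 points or more for 7 of the 9, against 41.6% of genes, and higher by that much for none, against 14.7%. The median change was −18.4, from −53.4 for *Cd14* to −7.59 for *Ccr2*, against −6.73 over all genes. With the treatments exchanged, all 9 genes gained a peak and the median change was 18.4. Treatment and the other differences of these libraries, the chromosome Y peaks and the marker genes of other cells, cannot be told apart in this pair.

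The vehicle libraries compare the GFI1 forms without curcumin. In *GFI1-36N* against *GFI1-36S*, the rank was higher for 8 of the 9 genes, by 10 points or more for 5, where 15.2% of 12031 genes were, and lower by that much for *Cd14*, where 17.3% were. *Klf4* differed by 46.9, *Ccr2* by 24.5, *Csf1r* by 21.3, *Lyz2* by 21.1, *Cx3cr1* by 13.9 and *Cd14* by −23.8. None of the 9 lost or gained its peak, against 3.43% and 3.15% of genes. The heights of *Ccr2* and *Klf4* were 2.57 and 1.63 times those in *GFI1-36S* with intervals apart, as for 1.02% of genes, and that of *Cd14* was 0.552 times, as for 16.7%. In *GFI1-KD* against *GFI1-36S*, 4 genes were higher by 10 points or more, where 16.3% of 12307 genes were, namely *Lyz2* with 25.3, *Itgam* with 22.2, *Klf4* with 20.6 and *Ccr2* with 16.8. Their heights were 1.51 to 2.56 times as high with intervals apart, against 5.94% of genes, and none was lower in this way, against 1.52%. *Cd14* differed by −18.6 in rank, where 9.88% of genes were lower by 10 or more. None lost or gained its peak, against 2.2% and 5.32%. With the summit required inside the window, *Lyz2* differed by −6.23 in *GFI1-36N* and by −27.4 in *GFI1-KD*, and *Ccr2* by −7.80 in *GFI1-KD*. These 2 comparisons share the *GFI1-36S* vehicle library, so that its low values of *Ccr2* and *Lyz2* and its high value of *Cd14* enter both.

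Between *GFI1-KD* and *GFI1-36N* with vehicle, the median difference was −6.43, or 2.15 with genes ranked by summit height, with *Itgam* higher by 17.0, where 18.2% of 12354 genes were higher by 10 or more, and *Klf4* and *Csf1r* at −26.3 and −17.6, where 10.7% were lower. In height, *Itgam* was 1.83 times as high with intervals apart, as for 33.5% of genes, and none of the 9 was lower in this way, against 0.375%. None lost or gained its peak, against 2.57% and 5.96%. With vehicle, 3 of the 9 genes ranked higher in *GFI1-KD*, and 5 of the 9 had a greater height, where 91.4% of all genes did. With curcumin, 8 of the 9 genes ranked higher in *GFI1-KD*, 5 of them by 10 points or more, where 12.3% of 12276 genes were, and the median difference was 16.7 against −2.97 over all genes. *Klf4* differed by 44.2, *Csf1r* by 32.9, *Cd14* by 32.7, *Lyz2* by 16.8 (−10.7 with the summit required inside the window) and *Ccr2* by 16.7, and none was lower by 10 or more, against 24% of genes. The heights of *Ccr2*, *Csf1r*, *Klf4* and *Cd14* were 2.28, 1.89, 1.62 and 1.51 times as high with intervals apart, as for 1.75% of genes, and none was lower, against 5.34%. None lost or gained its peak, against 7.46% and 1.25%. For *Csf1r* and *Klf4*, the change with curcumin was 10 points or more in both *GFI1-36N* and *GFI1-KD* mice and differed in sign. For *Ccr2*, *Cx3cr1*, *Cd68* and *Adgre1* the sign differed too, with changes of 5.27 or less in *GFI1-KD* mice. None of these differences was tested.

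A wider list of ligands, receptors, transcription factors and effectors of monocytes and macrophages, 51 genes other than the 9, was read in the same way. Of these, 34 had a promoter peak in the 5 libraries, and 17 of the 34 had none in *GFI1-36S* curcumin, against the 12.3% of all genes given above. No library had a peak at 11 of the 51 genes, among them *C1qa* and *C1qb*, which encode complement proteins of mature macrophages, the scavenger receptor genes *Marco* and *Cd36*, and the ligand genes *Il34*, *Csf2*, *Ccl2*, *Ccl7* and *Cx3cl1*. The receptor genes *Csf2ra* and *Fcgr3* were also among these 11. Other macrophage genes of the list did have peaks, *Cd163* and *Mrc1* in 5 libraries and *Trem2* and *Siglec1* in 4. The ligand *Csf1* had a peak in all 6 libraries. In *GFI1-36N* mice 14 of 39 genes with a peak ranked lower by 10 points or more with curcumin and 1 ranked higher by that much. In *GFI1-KD* mice 3 of 40 ranked lower and 10 higher by 10 points or more. The shares are 35.9% and 2.56% for the former and 7.5% and 25% for the latter, beside the shares of all genes already given, 11% and 19.5%, and 20.7% and 9.38%. The median change was −5.80 and 1.56, and −21.4 in *GFI1-36S* mice, where 19 of 36 genes lost their peak.

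By role, the 12 transcription factors all had a promoter peak in the 5 libraries and 8 had one in *GFI1-36S* curcumin. *Spi1*, which encodes PU.1, the main factor of the lineage, ranked 90.9 in *GFI1-36S* vehicle and 9.83 in *GFI1-36S* curcumin, and *Zeb2* went from 97.2 to no peak. In *GFI1-36N* mice 6 of the 12 factors ranked lower by 10 points or more with curcumin and none ranked higher by that much. The shares of all genes were 11% and 19.5%. In *GFI1-KD* mice 5 ranked higher by 10 points or more and none lower by that much, beside 9.38% and 20.7% of all genes. *Irf5*, a factor of inflammatory macrophages, went from 91.4 to 45.1 in *GFI1-36N* mice, and *Egr2* from 45.8 to 69.2 in *GFI1-KD* mice. *Irf8*, which directs progenitors to the monocyte lineage, ranked 70.2 in *GFI1-36N* vehicle, against 24.95 in *GFI1-36S* and 36.7 in *GFI1-KD* vehicle.

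Among the effectors, *Mpeg1*, which encodes perforin-2 of macrophages, went from 64.3 to 29.0 with curcumin in *GFI1-36N* mice, and *Ctss*, a lysosomal protease that helps in antigen presentation, from 27.7 to 53.0 in *GFI1-KD* mice. *Ms4a6c* ranked 64.9 in *GFI1-36N* vehicle, against 16.3 and 17.6 in the vehicle libraries of *GFI1-36S* and *GFI1-KD*. Other genes went against the list. *Ctsb*, which encodes the protease cathepsin B, changed by 9.98 and *Csf2rb*, a receptor chain for growth factors, by 18.2 in *GFI1-36N* mice, while *Psap* changed by −15.4 and *Csf1* by −14.1 in *GFI1-KD* mice. *Psap* and *Ctsb* also ranked higher in the library labelled *GFI1-36S* curcumin, by 13.7 and 9.77. The receptors had a median change of −3.91 in *GFI1-36N* mice and −1.51 in *GFI1-KD* mice.

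**Figure D5:**
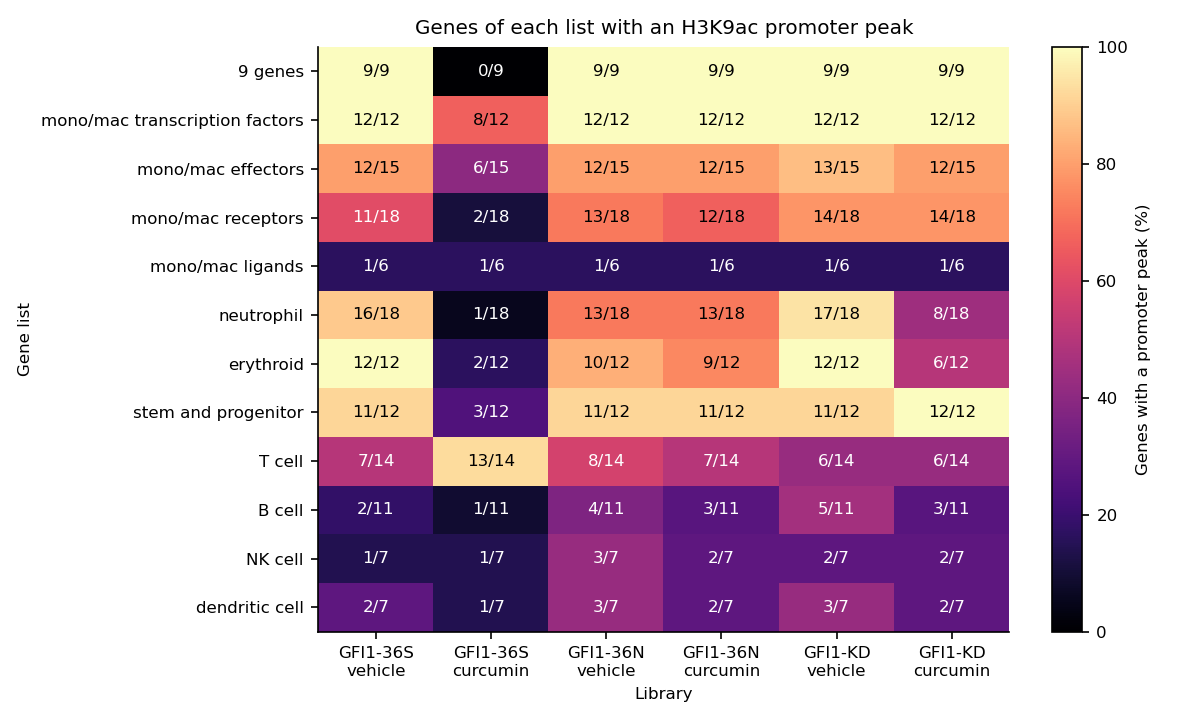
Number of genes of each list with an H3K9ac promoter peak, by library. Colour is the share of the list in percent, and numbers give genes with a peak out of genes matched. In *GFI1-36S* curcumin the neutrophil row holds 1 of 18, the erythroid row 2 of 12 and the T-cell row 13 of 14, and in *GFI1-KD* curcumin the neutrophil row holds 8 of 18.

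Marker genes of other cells moved with these results in part, and their part in them was not tested. In *GFI1-KD* mice, 17 of 18 neutrophil genes had a promoter peak with vehicle and 8 with curcumin, with a median change of −17.1 in rank, and 12 and 6 of 12 erythroid genes had one. By fold enrichment, *Itgam* and *Lyz2*, which neutrophils share, were the genes of the 9 that ranked lower in that pair. *Lyz2* did so only without the requirement on the summit. With genes ranked by summit height, *Adgre1*, *Cd68*, *Ccr2* and *Cx3cr1* were lower there too, with changes of −10.9, −5.73, −3.89 and −0.970. In *GFI1-36N* mice, 13 of 18 neutrophil genes had a peak in each library, with a median change of 6.53, while 8 of the 9 genes ranked lower. Between vehicle libraries, the neutrophil list had a median difference of 8.98 in *GFI1-KD* against *GFI1-36S*, with 7 of 17 genes higher by 10 points or more, and of 15.5 against *GFI1-36N*, with 10 of 17. *Itgam* ranked higher in *GFI1-KD* in both. Erythroid genes differed by a median of 15.0 in *GFI1-KD* against *GFI1-36N* vehicle, with 10 of 12 higher by 10 points or more. Of 12 stem and progenitor genes, 11 or 12 had a peak in each library but *GFI1-36S* curcumin, which had 3. Their median change with curcumin was 7.36 in *GFI1-36N* mice and −0.151 in *GFI1-KD* mice. In *GFI1-36N* mice 5 of the 12 were higher by 10 points or more and 1 was lower by that much. The shares of all genes were 19.5% and 11%. T-cell genes with a peak numbered 7 and 13 of 14 in the *GFI1-36S* pair, 8 and 7 in the *GFI1-36N* pair and 6 in either *GFI1-KD* library. Summed over the 14 genes, the ranks of the T-cell list came to 607 in *GFI1-36S* curcumin and to 72.01 to 121 in the other libraries. The defining T-cell gene *Cd3e* had a peak in *GFI1-36S* curcumin and in no other library. B-cell, NK-cell and dendritic-cell genes had a peak at 1 to 5 of 11, 1 to 3 of 7 and 1 to 3 of 7, respectively.

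The genes with the pattern of ranks most like that of *Csf1r* over the 6 libraries, by the root mean square difference in rank, were *Ctss* with 2.49, *Dse* with 4.51, *Dusp22* with 4.66, *Cds1* with 5.24 and *Hip1* with 6.05 rank points. *Ctss* ranked 21.9, 40.4, 27.0, 27.7 and 53.0 in the 5 libraries and had no peak in *GFI1-36S* curcumin. Those most like the median of the 9 genes were *4930518I15Rik* with 1.88, *Pros1* with 1.98, *Tlr9* with 2.05, *Arhgef6* with 2.61 and *Cybb* with 2.82. *Cybb* encodes the catalytic chain of the phagocyte oxidase and *Tlr9* a receptor for microbial DNA. All 10 of these genes lacked a promoter peak in *GFI1-36S* curcumin, which is no separate observation because the matching used that library too.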

How the data were processed

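H3K9ac ChIP-seq was analysed in 6 libraries, 1 per group. Reads were trimmed by the authors (Trim Galore), aligned to mm10 (BWA-MEM) and turned into peaks library by library (MACS2), less the ENCODE black list. Per peak, the authors deposited a fold enrichment, which is a ratio to the local background, an integer score, and its −log10 p and −log10 q values. Nothing is normalized between libraries, and control, threshold and handling of duplicates are not given in the sources used here. Genes came from GENCODE release M21 (Python 3.11.15, numpy 2.4.6, scipy 1.17.1, pandas 2.3.3). A promoter was 1 kb on each side of any TSS, and overlap was at least 1 bp. Calls within a pair were a peak lost or gained, or 10 rank points or more. Fragments were recovered within 0.002 plus 0.05% on the −log10 p scale. The steps were tested on simulated data. The 9 genes, the lists and the alternatives were chosen with earlier results of these data known. By rule, the genes named are the 9, genes whose TSS lies in their peaks, the 5 most like *Csf1r* and the 5 most like the median, and the 2 largest rises and falls of the wider list in each pair. Other genes, including those listed without a peak, were chosen after their values were seen. Of 52 names of the wider list, 51 matched. *Adgre1*, *Csf1r* and *Cd14* are shown without sequence, and that of *Cx3cr1* and *Ccr2* is not shown. Upstream bases were read from RefSeq (GRCm38.p6). The peak nearest to *Ccr2* in *GFI1-36S* curcumin is not reported here.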

Additional observations from a re-analysis of the deposited data

Results flagged for a closer look

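The promoter rank of *Csf1r* changed with curcumin by −20.7 in *GFI1-36N* and by 29.8 in *GFI1-KD* mice. That of *Klf4* changed by −32.8 and 37.8. Both stand out because the only pair of libraries in each genotype moved in opposite directions by 10 rank points or more. With 1 library per treatment in each genotype, the difference was not tested. Judged by list names, the *GFI1-36N* pair differs in zygosity as well as in treatment. In height, the *GFI1-KD* intervals did not overlap for either gene, whereas the *GFI1-36N* intervals did.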

How the results depend on the processing

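No paired analysis was possible because each group holds 1 library and no result comes from a test. Over the pairs, the median change in rank of the 9 genes lay between −14.1 and −5.37 in *GFI1-36N* and between −3.89 and 16.9 in *GFI1-KD* mice, where it was below zero only with genes ranked by summit height. That ranking also turned the median of *GFI1-KD* against *GFI1-36N* vehicle to 2.15, and the change of *Adgre1* in *GFI1-KD* mice to −10.9. With a window of 3 kb, 1 gene, *Cd68*, had a peak in *GFI1-36S* curcumin and in all 6 libraries, and its change in *GFI1-36S* was 9.74. That peak belongs to the start of *Mpdu1*, which the wider window takes in. With this window *Cd68* changed by 8.64 in *GFI1-36N*, against −7.89 in the main setting. Without the *GFI1-36S* curcumin library, 9 genes had a peak in all. With the treatments of *GFI1-36S* exchanged, 0 genes lost and 9 gained the peak, the median change was 18.4, and *Csf1r*, *Adgre1*, *Itgam*, *Cd14*, *Cd68*, *Lyz2* and *Klf4* changed by 22.1, 12.4, 18.3, 53.4, 18.4, 27.3 and 29.6. With the summit inside the window, 1 gene lost its peak in *GFI1-36N*, 2 gained one in *GFI1-KD* with a median of 16.9, 2 lost one in *GFI1-KD* against *GFI1-36S* and against *GFI1-36N* vehicle, and 1 gained one in *GFI1-KD* against *GFI1-36N* curcumin. There *Lyz2* changed by 6.41 in *GFI1-36N* and differed by −6.23, −27.4 and −10.7 in *GFI1-36N* against *GFI1-36S*, *GFI1-KD* against *GFI1-36S* and *GFI1-KD* against *GFI1-36N* curcumin, and *Ccr2* differed by −7.80 in *GFI1-KD* against *GFI1-36S*. All of these come from peaks whose summit lies outside 1 kb. Those of *Lyz2* and *Ccr2* are wide, and that of *Adgre1* in *GFI1-36N* curcumin, 1532 bp wide, has its summit at +1031 bp. Away from promoter windows, 4, 5 and 3 genes had a body peak in *GFI1-36S* vehicle, *GFI1-KD* vehicle and *GFI1-KD* curcumin, and with well-supported transcripts, an alternative chosen after seeing the data like the ranking by summit height, 1 had one in *GFI1-36S* curcumin. Of the other values, 261 of the comparisons and 536 of single genes moved by less than 10 rank points or, for counts, by no more than 1.5 times, and small ones may have changed sign. A peak absent from a list may be below its threshold, and intervals cover counting error only.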
